A study of Rattus norvegicus with 6 samples.

Results

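Collagen chain genes were read in cultures of primary rat hippocampal cells, as the rows of the deposited expression table whose symbol is Col, a number, a and a number. There were 43 such rows among 37183 symbols, with 10 fibrillar chains, 6 basement membrane chains of type IV and 27 others. The series held 6 libraries, 1 for each group: astrocyte cultures treated with 200 nM insulin for 6 h or 12 h and their control, and hippocampal neuron cultures treated with the same dose for 6 h or 12 h and their control. The control was saline by its title and untreated at time 0 by its other labels. Astrocytes had been grown with serum and neurons without it, in a medium with 1% B27 supplement. All cultures, controls included, had a change of medium 4 h before treatment, astrocytes to 2% FBS with 5 mM glucose and neurons to serum-free medium with insulin-free B27, so the insulin libraries spent 6 h or 12 h longer in the changed medium. With 1 library in a group there is no replicate, no difference below was tested, and values describe these libraries. Total RNA was sequenced from a stranded, ribosome-depleted library. Values are FPKM, the fragments of a transcript per kilobase of its length scaled to the library, from a log2, quantile-normalised table, so levels can be set side by side between genes. The depth of the libraries is unknown.

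Collagens are secreted proteins whose chains wind around each other in a long helix with glycine at a fixed spacing. Fibrillar collagens such as types I, III, V and XI build tension-bearing fibrils, type IV builds the sheet of basement membranes, and others bind fibril surfaces, form beaded filaments or short networks, or span the cell membrane. In the brain the fibrillar types are known mainly from meninges and vessel walls and type IV from the basement membrane around vessels, while neural tissue itself holds little fibrillar collagen. A chain is hydroxylated and folded in the endoplasmic reticulum before export, then trimmed and cross-linked outside the cell.

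The labels were checked against marker genes, since these bear on which cells made the collagen transcripts. The libraries labelled astrocyte carried pericyte and smooth muscle markers at a summed 425 to 504 FPKM over 8 genes, with 4 of 8 at 1 FPKM or more, against 4.52 to 10.6 FPKM in the libraries labelled neuron. Within that list the pericyte and vessel muscle genes Rgs5 and Myh11 were below 0.1 FPKM in the astrocyte libraries and Kcnj8 had no value there. Fibroblast markers other than collagens summed to 17.7 to 20.3 FPKM in the astrocyte libraries, with 2 of 6 at 1 FPKM or more (Thy1 and Twist1) and Dcn and Fap below 0.1 FPKM, and to 3.06 to 4.93 FPKM in the neuron libraries. The neuron sum was nearly all Thy1 and Pdgfra, which is also on the oligodendrocyte lineage list. Lum, Dcn, Fap and Twist1 were below 0.1 FPKM or had no value there. The 11 astrocyte markers summed to only 55.3 to 62.6 FPKM in the libraries labelled astrocyte, against 349 to 388 FPKM in those labelled neuron, where oligodendrocyte lineage markers also summed to 111 to 118 FPKM. Of the 11, Fgfr3 alone went the other way, at 22.1 to 31.0 FPKM in the astrocyte libraries against 3.70 to 4.47 FPKM. Aqp4, Aldh1l1, Slc1a2 and Slc1a3 were below 1 FPKM in the astrocyte libraries. Mog and Cspg4 of the oligodendrocyte list were higher in the astrocyte control than in the neuron control. The 10 neuron markers summed to 3.84 to 4.88 FPKM in the astrocyte libraries and to 62.1 to 71.3 FPKM in the neuron libraries. Every endothelial and microglia marker was below 1 FPKM in every library. The part of these markers in the collagen levels was not tested. In cultures read as a whole, a larger number of cells of a type cannot be told apart from more RNA per cell.

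Chains of type IV are made from genes that lie head to head, so their start regions are the sequence shown here. RefSeq windows of 300 bases on the rat build GRCr8, from 250 bases before to 50 after the annotated start, were found for 34 of the 43 chains and for 8 of the 11 chains that reached 1 FPKM, all but Col1a1, Col3a1 and Col6a2. The starts of Col4a1 and Col4a2, on opposite strands of chromosome 16, lay 76 bases apart, and their windows shared 176 bases, in capitals below. The starts of Col4a3 and Col4a4 on chromosome 9 lay 412 bases apart and the windows shared 88 bases, also in capitals. Those of Col4a5 and Col4a6 on chromosome X lay 1414 bases apart and their windows shared none. Each window reads 5′ to 3′ on its gene's own strand, so the shared part of a pair is the reverse complement in the second window. The window of Col8a2, the chain of highest level among those with a window, is added with its matches to GGGCGG, on either strand, in capitals.
Col4a1, chr16:84885347-84885646, plus strand: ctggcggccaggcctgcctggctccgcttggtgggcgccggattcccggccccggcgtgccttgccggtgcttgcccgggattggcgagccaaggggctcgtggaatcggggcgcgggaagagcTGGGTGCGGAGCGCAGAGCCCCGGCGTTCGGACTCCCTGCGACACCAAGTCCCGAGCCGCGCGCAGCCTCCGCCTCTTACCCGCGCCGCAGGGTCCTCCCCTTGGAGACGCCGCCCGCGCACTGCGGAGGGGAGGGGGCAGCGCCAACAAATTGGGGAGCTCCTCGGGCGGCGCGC
Col4a2, chr16:84885471-84885770, minus strand: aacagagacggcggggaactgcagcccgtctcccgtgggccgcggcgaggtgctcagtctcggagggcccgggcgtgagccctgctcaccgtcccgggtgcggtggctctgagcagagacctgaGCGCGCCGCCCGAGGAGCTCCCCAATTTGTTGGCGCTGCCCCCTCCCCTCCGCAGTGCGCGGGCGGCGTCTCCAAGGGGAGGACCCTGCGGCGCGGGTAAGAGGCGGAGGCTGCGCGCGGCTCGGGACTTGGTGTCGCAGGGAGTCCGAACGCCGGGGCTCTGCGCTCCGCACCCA
Col4a3, chr9:91323740-91324039, plus strand: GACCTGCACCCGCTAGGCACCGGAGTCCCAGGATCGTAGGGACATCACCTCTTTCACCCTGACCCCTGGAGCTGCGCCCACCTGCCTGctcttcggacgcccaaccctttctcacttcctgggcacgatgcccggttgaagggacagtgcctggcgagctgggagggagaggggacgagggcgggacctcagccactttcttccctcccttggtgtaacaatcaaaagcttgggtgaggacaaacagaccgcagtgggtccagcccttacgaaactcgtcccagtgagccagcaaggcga
Col4a4, chr9:91323528-91323827, minus strand: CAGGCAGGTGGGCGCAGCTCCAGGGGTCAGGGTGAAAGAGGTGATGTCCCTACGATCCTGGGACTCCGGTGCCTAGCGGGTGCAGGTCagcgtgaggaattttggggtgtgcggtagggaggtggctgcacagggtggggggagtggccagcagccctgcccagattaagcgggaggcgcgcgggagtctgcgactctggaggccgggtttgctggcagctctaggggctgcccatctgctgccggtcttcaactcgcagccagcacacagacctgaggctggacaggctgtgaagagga
Col8a2, chr5:143870519-143870818, plus strand: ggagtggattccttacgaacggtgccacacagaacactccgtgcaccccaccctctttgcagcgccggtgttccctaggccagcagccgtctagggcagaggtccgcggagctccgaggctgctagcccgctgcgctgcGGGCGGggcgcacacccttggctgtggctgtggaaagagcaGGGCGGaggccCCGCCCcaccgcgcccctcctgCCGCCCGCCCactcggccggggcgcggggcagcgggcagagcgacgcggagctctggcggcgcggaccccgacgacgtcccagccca

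Simple promoter letters were counted in these windows on both strands. GGGCGG, the core of a GC box, was found in 19 of 34 chains (55.9%), against 33.1% of 33469 RefSeq windows of the same length. It occurred in 6 of the 8 expressed chains with a window, Col4a1, Col4a2, Col5a1, Col8a1, Col8a2 and Col11a1. The matches of Col4a1 and Col4a2 lie in the bases their windows share, so the same letters count for both. Chain counts take the first window of a gene, while the comparison counts every window. CCAAT was in 10 of 34 chains (29.4%), against 37.5% of all windows, and TATAAA in 3 (8.82%), against 14.2%, with none of the 3 (Col10a1, Col13a1 and Col17a1) at 1 FPKM. A match is a description of the letters and not a site.

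**Figure D1:**
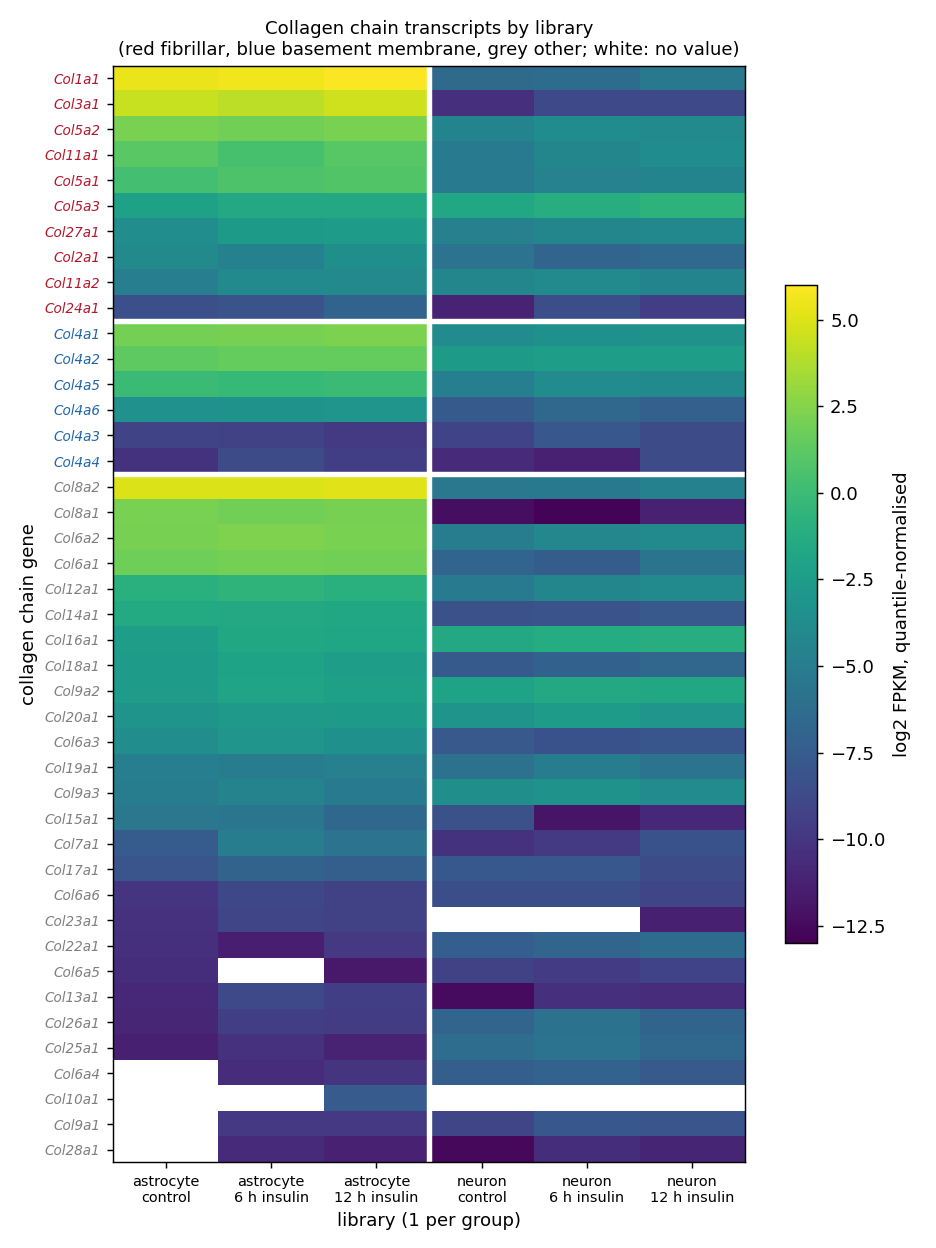
Level of 43 collagen chain genes (rows, by class, ordered by the astrocyte control) in the 6 libraries (columns), as log2 FPKM by colour, with white for no value. The 3 astrocyte columns each hold 11 chains at 1 FPKM or more, and no chain reaches 1 FPKM (0 on the log2 scale) in the neuron libraries.

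Where 3 values of a culture follow each other below, they are its libraries at 0 h (the control), 6 h and 12 h. In the astrocyte cultures 11 chains were at 1 FPKM or more in all 3 libraries, and no other chain reached that level in any library. No chain reached 1 FPKM in a neuron library. A further 12 chains peaked between 0.1 and 1 FPKM and 20 stayed below 0.1 FPKM in every library. Of the 43 chains, 37 had a value in all libraries.

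Fibrillar chains held most of the collagen signal in astrocyte cultures. Col1a1, the main chain of type I collagen, was at 44.2, 49.4 and 60.4 FPKM in the astrocyte cultures. Col3a1, the chain of type III collagen of distensible tissues, was at 21.4, 17.1 and 24.8 FPKM there. Both were far down in the neuron cultures, where Col1a1 was at 0.0113, 0.0131 and 0.0246 FPKM and Col3a1 at 0.000754, 0.00225 and 0.00226 FPKM. Every astrocyte library was above every neuron library for both genes, an order that 25.8% of the 19471 symbols with 6 values had.

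The chains that mix into those fibrils and limit their width were lower. Col5a2 was at 4.56, 3.93 and 4.53 FPKM in the astrocyte cultures, and Col5a1, its partner in type V collagen, at 1.24, 1.66 and 1.82 FPKM. In the neuron libraries Col5a2 was at 0.0465, 0.0721 and 0.0622 FPKM and Col5a1 at 0.0277, 0.0429 and 0.0474 FPKM. Col11a1 of type XI, known from cartilage, was at 2.16, 1.42 and 2.04 FPKM in the astrocyte libraries, against 0.0268, 0.0514 and 0.0720 FPKM in the neuron libraries. For these 3 chains, too, the astrocyte libraries were all above the neuron libraries, beside the 25.8% of symbols given above. The fibrillar chains short of 1 FPKM were Col5a3, Col27a1, Col2a1, Col11a2 and Col24a1. Among them Col5a3 and Col11a2 were not higher in the astrocyte control than in the neuron control. Col5a3 was at 0.224, 0.352 and 0.350 FPKM in the astrocyte libraries and at 0.309, 0.449 and 0.609 FPKM in the neuron libraries, where it was the highest of all chains after insulin. Col11a2, known from cartilage, was at 0.0345, 0.0626 and 0.0614 FPKM in the astrocyte libraries and at 0.0504, 0.0678 and 0.0459 FPKM in the neuron libraries. For both chains the ranges of the cultures overlapped.

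Col1a2, the second chain of type I collagen, is not among the 43 because the table gives it as 2 rows, Col1a2_1 and Col1a2_2. In the astrocyte cultures these summed to 0.667, 0.499 and 0.518 FPKM, and Col1a1 was 66.2, 98.9 and 117 times that sum. The reads of a gene listed as 2 rows can be split between them, so its level is uncertain, and the rows were chosen for mention after their values were seen.

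Basement membrane chains were led by Col4a1 and Col4a2, the pair that makes the common form of type IV collagen and whose shared start region is printed above. Col4a1 was at 4.04, 4.34 and 4.73 FPKM and Col4a2 at 2.46, 2.78 and 2.86 FPKM in the astrocyte cultures. In the neuron libraries Col4a1 was at 0.0686, 0.0904 and 0.107 FPKM and Col4a2 at 0.159, 0.190 and 0.196 FPKM. Col4a1 was above Col4a2 in the 3 astrocyte libraries, by ratios of 1.65, 1.56 and 1.65, and below it in the 3 neuron libraries, by ratios of 0.430, 0.475 and 0.547.

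Col4a5, a chain of the minor networks that is also found in smooth muscle basement membranes, lay just short of 1 FPKM in the astrocyte control. It was at 0.987, 0.821 and 0.971 FPKM in the astrocyte libraries and at 0.0351, 0.0709 and 0.0661 FPKM in the neuron libraries. Its neighbour Col4a6 was at 0.0960, 0.103 and 0.117 FPKM in the astrocyte libraries and at 0.00505, 0.00982 and 0.00701 FPKM in the neuron libraries. Col4a3 and Col4a4, chains of the kidney filter, also lie head to head and were below 0.005 FPKM in all 6 libraries.

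Among the other chains the highest was Col8a2 of the short-chain type VIII collagen, known from vessel walls and the corneal membrane. Its level lay between those of Col3a1 and Col1a1 in each astrocyte library. Col8a2 was at 31.6, 32.3 and 35.2 FPKM in the astrocyte cultures, second to Col1a1 among the 43 chains in each. Its partner Col8a1 was at 4.52, 3.84 and 4.37 FPKM there. In the neuron libraries Col8a2 was at 0.0237, 0.0254 and 0.0388 FPKM and Col8a1 at 0.000199, 0.000142 and 0.000405 FPKM. The ratio of Col8a2 to Col8a1 was 7.01, 8.42 and 8.04 in the astrocyte libraries.

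Type VI collagen, which forms beaded filaments around cells, was uneven between its chains. Col6a1 was at 3.44, 4.15 and 3.89 FPKM and Col6a2 at 4.29, 4.99 and 4.50 FPKM in the astrocyte libraries, within a ratio of 0.802 to 0.864 of each other. Col6a3, the large chain that joins them in the common form of the protein, was at 0.0775, 0.116 and 0.0885 FPKM, so that Col6a1 was 35.7 to 44.4 times higher. The neuron libraries had Col6a1 at 0.00883, 0.00588 and 0.0197 FPKM and Col6a2 at 0.0306, 0.0535 and 0.0623 FPKM. The later chains Col6a4, Col6a5 and Col6a6 were below 0.01 FPKM or had no value in every library.

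**Figure D2:**
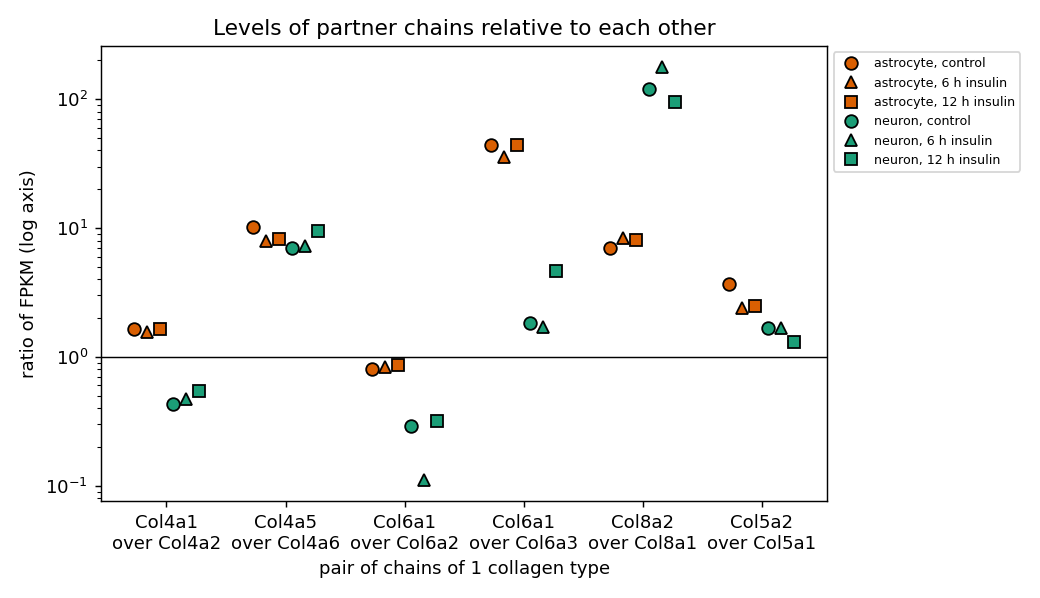
Ratio of FPKM between 2 chains of the same collagen type (vertical, log axis) for 6 pairs, with 1 point per library, astrocyte libraries in orange and neuron libraries in green. Col4a1 over Col4a2 lies above 1 in the 3 astrocyte libraries (1.56 to 1.65) and below 1 in the 3 neuron libraries (0.430 to 0.547).

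The fibril-associated chains, which coat fibrils and carry interrupted helices, were below 1 FPKM throughout. Col12a1 was at 0.534, 0.654 and 0.513 FPKM and Col14a1 at 0.392, 0.350 and 0.321 FPKM in the astrocyte libraries, against 0.0270, 0.0504 and 0.0632 FPKM and 0.00321, 0.00360 and 0.00476 FPKM in the neuron libraries. Col16a1 had the reverse order, at 0.196, 0.305 and 0.293 FPKM in the astrocyte libraries and 0.348, 0.430 and 0.451 FPKM in the neuron libraries. Col9a2 was at 0.172, 0.261 and 0.223 FPKM in the astrocyte libraries and 0.250, 0.349 and 0.331 FPKM in the neuron libraries, and these ranges overlapped. Col18a1, whose end fragment is endostatin, was at 0.177, 0.259 and 0.184 FPKM, against 0.00520, 0.00732 and 0.00921 FPKM. The membrane-spanning chains Col13a1, Col17a1, Col23a1 and Col25a1 were below 0.02 FPKM wherever they had a value, and so were the chains Col10a1, Col26a1 and Col28a1.

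Summed over the 43 chains, collagen transcripts came to 127, 130 and 153 FPKM in the astrocyte cultures, against 1.77, 2.43 and 2.56 FPKM in the neuron cultures. The number of symbols with a value also rose, from 22891 to 23814 and 23898 in astrocyte cultures and from 23927 to 25510 and 25528 in neuron cultures. The median of all genes was above the control after insulin too, as given below, and the sums are not adjusted for that shift. Fibrillar chains held 58.1%, 57.1% and 61.7% of the astrocyte sums and 29.9%, 31.4% and 36.5% of the neuron sums. Type IV chains held 5.97%, 6.21% and 5.68% of the astrocyte sums and 15.3%, 15.1% and 14.9% of the neuron sums. Col1a1, Col8a2 and Col3a1 alone made up 76.2% to 78.8% of the astrocyte sums. In the neuron libraries Col5a3, Col16a1 and Col9a2 made up 50.6% to 54.4%.

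**Figure D3:**
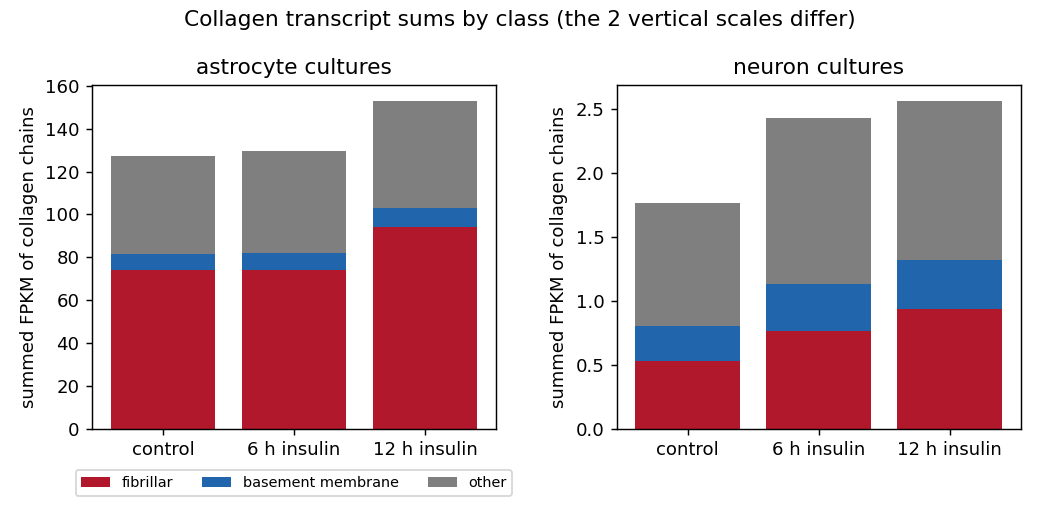
Summed FPKM of the collagen chains (vertical, from 0, on a different scale in each panel) in the astrocyte libraries (left) and neuron libraries (right), stacked by class. The astrocyte sums run from 127 to 153 FPKM and the neuron sums from 1.77 to 2.56 FPKM.

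The controls of the cultures were set side by side first. Differences are on the log2 scale, astrocyte control over neuron control, and a gene was compared when it had a value in both and at least 1 FPKM in either. All 11 chains compared were higher in the astrocyte control by 2-fold or more, where 18.7% of the 7146 genes compared were that much higher and 40.6% differed 2-fold in either direction. Their median difference was 7.13, beside -0.10 for all genes compared. These 11 chains passed the level limit through the astrocyte library alone, so their share is not one of all 43. Their common direction follows from that limit, and the count and median follow from it in part. The smallest difference was 3.94, for Col4a2. Differences were 5.48 for Col5a1, 5.88 for Col4a1, 6.33 for Col11a1, 6.62 for Col5a2, 7.13 for Col6a2, 8.61 for Col6a1, 10.38 for Col8a2 and 11.93 for Col1a1. Col8a1 and Col3a1 had 14.47 and 14.79, with neuron levels so low that the sizes are uncertain. Col6a1, Col1a1, Col8a2, Col11a1 and Col5a1 were also below 0.03 FPKM in the neuron control, so the sizes of their differences are uncertain too.

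Below 1 FPKM in both controls the pattern was mixed. Of 27 such chains, 13 were at least 2-fold higher and 6 at least 2-fold lower in the astrocyte control, where 22.8% of 13688 genes were that much higher and 26.9% that much lower. The higher ones included Col14a1 (6.93), Col18a1 (5.09), Col4a5 (4.81), Col12a1 (4.31), Col4a6 (4.25) and Col6a3 (4.01). The lower ones included Col25a1 (-5.14), a membrane-spanning chain found in amyloid plaques, Col26a1 (-4.15) and Col22a1 (-3.07). Over the 37 chains with a value in every library, 22 had all 3 astrocyte libraries above all 3 neuron libraries, beside 25.8% of the symbols with 6 values. The opposite order held for 5 chains, Col9a3, Col16a1, Col22a1, Col25a1 and Col26a1, and for 36.7% of symbols. The 3 libraries of a culture are different treatments, not replicates.

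After insulin every chain at 1 FPKM or more in the astrocyte cultures stayed within 2-fold of the control. At 6 h none of 11 chains differed 2-fold from the control, where 1.93% of 6206 genes did, and at 12 h none of 11 did, where 1.53% of 6221 genes did. The median difference of the chains was 0.10 at 6 h and 0.18 at 12 h, beside 0.09 and 0.10 for all genes compared. At 6 h 7 chains were above 0 and 6 above the all-gene median, and at 12 h 8 were above 0 and 7 above that median. The 6 h and 12 h differences share the control library.

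The fibrillar chains spread most at 6 h. Col11a1 was lowest, at 1.42 FPKM after 6 h of insulin against 2.16 in the control, a difference of -0.61. Col3a1 had -0.32 and Col5a2 -0.21, while Col1a1 had 0.16 and Col5a1 0.42. At 12 h Col11a1 had -0.08, Col5a2 -0.01, Col3a1 0.22, Col1a1 0.45 and Col5a1 0.56. Col5a1 had the largest positive difference of the 11 chains at both times. The ratio of Col5a2 to Col5a1 was 2.38 and 2.49 in the 6 h and 12 h libraries, against 3.69 in the control. Set against the 6 h library instead of the control, the 12 h library was higher by 0.54 for Col3a1, 0.52 for Col11a1 and 0.29 for Col1a1.

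The type IV, VI and VIII chains spanned a narrower range of differences than the fibrillar chains at both times. Some fibrillar chains were closer to the control than some of these, such as Col5a2 (-0.21 and -0.01) beside Col6a1. Col4a1 had 0.10 at 6 h and 0.22 at 12 h, and Col4a2 had 0.18 and 0.22. Col6a1 had 0.27 and 0.18 and Col6a2 0.22 and 0.07. Col8a2 had 0.03 and 0.15 and Col8a1 -0.23 and -0.05. For Col8a2 at 6 h and Col6a2 at 12 h, the difference was below the all-gene median, so its sign turns when the median is subtracted.

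**Figure D4:**
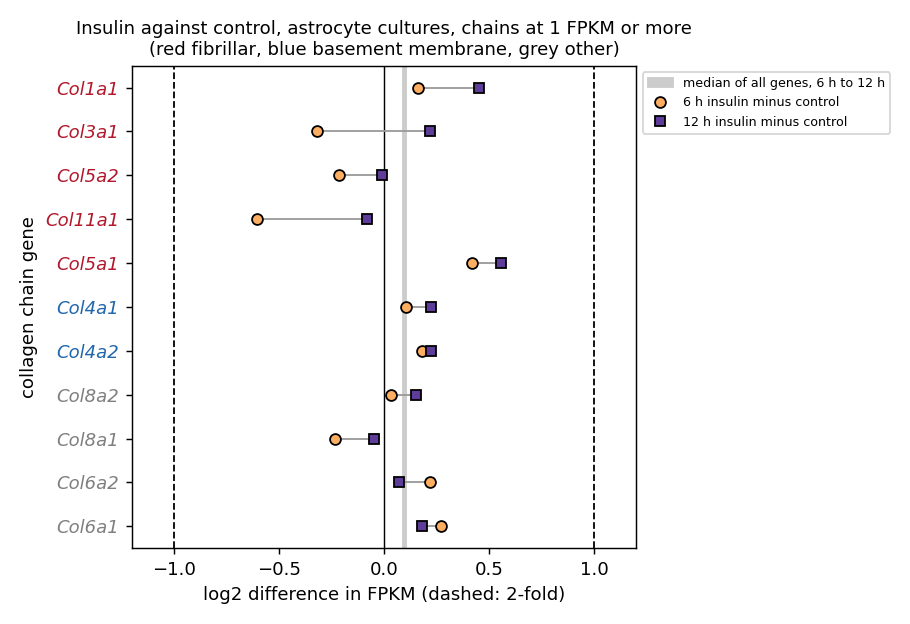
Log2 difference in FPKM between insulin and control in the astrocyte cultures (horizontal) for the 11 chains at 1 FPKM or more (vertical), with circles for 6 h, squares for 12 h, the all-gene medians (0.09 and 0.10) as a grey band and 2-fold as dashed lines. Every point lies inside the dashed lines, from -0.61 for Col11a1 at 6 h to 0.56 for Col5a1 at 12 h.

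Among astrocyte chains below 1 FPKM in both libraries, 10 of 27 differed 2-fold at 6 h, where 18.0% of 15307 genes did, and 8 of 28 at 12 h, where 18.1% of 15321 genes did. At 6 h 9 chains were higher and 1 lower, where 1896 genes were higher and 857 lower, and at 12 h 6 chains were higher and 2 lower, where 1901 genes were higher and 874 lower. Medians were 0.59 and 0.43, beside 0.22 and 0.25 for all genes below 1 FPKM. Of the chains past 2-fold the highest in level was Col27a1, a fibrillar chain of cartilage, at 0.161 and 0.168 FPKM after 6 h and 12 h of insulin against 0.0777 FPKM in the control, differences of 1.05 and 1.12. Col7a1, which anchors skin epithelium to its bed, was at 0.0323 and 0.0186 FPKM against 0.00556 FPKM. The others past 2-fold were below 0.03 FPKM in the libraries compared, where a value can rest on few fragments.

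In the neuron cultures no chain reached 1 FPKM, so none entered the comparison in which 2.89% of 6610 genes differed 2-fold at 6 h and 3.84% of 6641 at 12 h. Below 1 FPKM in both libraries, 9 of 41 chains differed 2-fold at 6 h, 7 of them higher and 2 lower, where 23.2% of 16104 genes differed, 2943 higher and 790 lower. At 12 h 15 of 41 did, 14 of them higher and 1 lower, where 24.6% of 16049 genes differed, 3093 higher and 851 lower. The median difference of the chains was 0.49 at 6 h and 0.64 at 12 h, beside 0.41 and 0.37 for all genes at these levels.

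Col5a3, the neuron chain with the highest level after insulin and second to Col16a1 in the control, was at 0.449 FPKM at 6 h and 0.609 at 12 h against 0.309 in the control, differences of 0.54 and 0.98. Of the other chains above 0.1 FPKM in the neuron control, Col16a1 had 0.30 and 0.37 and Col9a2 0.48 and 0.41. Col4a2 had 0.25 and 0.30 and Col20a1 0.55 and 0.05. The medians of all genes below 1 FPKM were 0.41 and 0.37. At lower levels, Col12a1 was at 0.0504 and 0.0632 FPKM against 0.0270, with 0.90 and 1.23, and Col11a1 had 0.94 and 1.43. Col1a1 had 0.21 at 6 h and 1.12 at 12 h, Col6a2 0.81 and 1.03, and Col4a1 0.40 and 0.64. Col15a1, a chain of the basement membrane zone, was the largest difference downward, at 0.000262 and 0.000539 FPKM against 0.00323 FPKM. Beside these, the 8 pericyte and smooth muscle markers summed to 6.73 FPKM at 6 h and 10.6 at 12 h against 4.52 in the neuron control, mostly Tagln, a contractile protein gene, which was at 6.53 and 10.3 FPKM against 4.35. Fibroblast markers other than collagens summed to 4.52 and 3.06 FPKM against 4.93, with Thy1 lower by 2-fold or more at 12 h (-1.65). Nearly all of that sum was Thy1, at 2.07 and 0.790 FPKM against 2.475, and Pdgfra, at 2.42 and 2.26 FPKM against 2.46. Pdgfra is also on the oligodendrocyte lineage list, so the sum is not a measure of fibroblasts. The part of these markers in the differences was not tested. The number of symbols with a value was 25510 and 25528 in the neuron insulin libraries, against 23927 in the control.

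Genes for modifying and folding collagen chains were mostly higher in the astrocyte control than in the neuron control. Genes of this and the following lists, too, were compared at 1 FPKM or more in either library. Of 16 modification genes compared, 15 were higher by 2-fold or more (median 2.38) and none lower, where 18.7% of all genes compared were higher. The limit on level was passed through the astrocyte control alone by 10 of the 16. Of 3 genes below 1 FPKM in both controls, 1 was higher and 1, Colgalt2, lower by 2-fold or more (-5.21). Serpinh1, the collagen-specific chaperone HSP47, was at 72.5, 91.8 and 107 FPKM in the astrocyte cultures and at 15.4, 16.7 and 20.4 FPKM in the neuron libraries. P4hb, a subunit of prolyl 4-hydroxylase, was at 40.5, 42.1 and 46.4 FPKM and at 12.3, 14.7 and 14.4 FPKM. Sparc, a collagen-binding matrix protein, was at 69.1, 68.0 and 79.8 FPKM in the astrocyte libraries and at 8.49, 8.24 and 10.3 FPKM in the neuron libraries. None of the 16 differed 2-fold after insulin in the astrocyte cultures at either time, with medians of 0.11 and 0.19. None of 7 did in the neuron cultures, with medians of 0.11 and 0.22. Of all genes compared, 1.93% and 1.53% did in astrocyte cultures and 2.89% and 3.84% in neuron cultures. So a count of 0 in this or the following lists is near the share of all genes. The all-gene medians were 0.09 and 0.10 in astrocyte cultures and 0.14 at both times in neuron cultures. Crtap, which works in a complex with Lepre1 on the chains' prolines, was below 0.02 FPKM in every library while Lepre1 was at 3.01, 3.59 and 3.90 FPKM in the astrocyte libraries. The annotation behind the Crtap row is not known, so its low level is uncertain.

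Export genes, which build the coat and cargo receptor for bulky procollagen, differed less between the cultures. Of 8 compared, none passed the limit through the astrocyte control alone. Tfg was at least 2-fold higher and Klhl12 at least 2-fold lower in the astrocyte control, with a median of 0.41 over the 8. Klhl12 passed the limit through the neuron control alone (1.00 against 0.494 FPKM), so its direction follows from the limit. None of 7 differed 2-fold at 6 h and none of 8 at 12 h in the astrocyte cultures (medians 0.04 and 0.23), nor any of 8 at either time in the neuron cultures (medians 0.41 and 0.26). Pcolce, which enhances removal of the procollagen tail, was at 22.5, 22.1 and 25.1 FPKM in the astrocyte libraries, against 0.0227, 0.0140 and 0.0271 FPKM in the neuron libraries. It and Tll1 were the 2 processing genes compared between the controls, both higher in the astrocyte control, through which alone they passed the limit, and none of 3 differed 2-fold after insulin there (medians -0.03 and 0.16). Of 5 processing genes below 1 FPKM in both controls, 2 were higher and 1, Adamts3, lower by 2-fold or more (-3.63).

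Lysyl oxidases cross-link collagen. The 4 compared, Lox, Loxl1, Loxl2 and Loxl3, were higher in the astrocyte control by 2-fold or more, but all 4 passed the limit through that library alone, so their count follows in part from the limit. Loxl4, below 1 FPKM in both controls, had a difference of -0.17. None of the 4 differed 2-fold after insulin in the astrocyte cultures (medians 0.22 and 0.01). Lox itself was at 8.02, 6.52 and 8.40 FPKM in the astrocyte cultures. Among genes of the modification, export, processing and lysyl oxidase lists at 1 FPKM or more in either library, the 1 that reached 2-fold after insulin was Loxl4, at 1.29 FPKM at 12 h in the neuron cultures against 0.360 in the control, a difference of 1.84. It was at 0.347 FPKM at 6 h there and passed the limit through the 12 h library alone, so its direction follows from the limit. In neuron cultures at 12 h 3.84% of all genes compared differed 2-fold. Below 1 FPKM others passed 2-fold, among them Lox, at 0.00177 and 0.00739 FPKM in the neuron insulin libraries against 0.000685 FPKM in the control.

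Most receptors and partners of collagen at 1 FPKM or more in either control had the same order. Below 1 FPKM in both, 2 of 4 receptor genes were 2-fold higher in the astrocyte control and 1, Lair1, lower (-1.84). Of 7 partner genes at that level, 4 were higher and 1, Lama1, lower (-3.16). The 5 receptor genes compared were higher in the astrocyte control by 2-fold or more, 3 of them having passed the limit through it alone, where 18.7% of all genes compared were higher. Among them were Itgb1, the common beta integrin, at 18.0 against 2.50 FPKM and Ddr1, a collagen-activated kinase, at 6.21 against 2.44 FPKM. Among 8 basement membrane partners 7 were higher, 6 of them past the limit through the astrocyte control alone. Agrn, agrin of synapses and vessels, was lower, at 0.706 FPKM in the astrocyte control against 2.44 in the neuron control. Agrn passed the limit through the neuron control alone, so its direction follows from the limit. Lamb2, a laminin chain, was at 9.38 FPKM against 1.76 and Nid1, which links laminin to type IV collagen, at 7.38 FPKM against 0.171. The 7 fibril-associated matrix genes compared were higher too, but 6 of them passed the limit through the astrocyte control alone. The other, Thbs1, thrombospondin 1, was at 660 FPKM against 1.06. Vcan, below 1 FPKM in both controls, had a difference of -0.14. After insulin none of the 5 receptor, 7 partner or 7 (6 h) and 8 (12 h) matrix genes differed 2-fold in the astrocyte cultures, with medians of -0.11, -0.06 and -0.18 at 6 h and 0.13, -0.01 and 0.01 at 12 h. In the neuron cultures 2 receptor, 2 partner and 1 matrix gene could be compared at 1 FPKM or more, and none of these differed 2-fold at either time.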

How the data were processed

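The deposited values are log2 FPKM in 1 table made by the authors, quantile-normalised across the 6 libraries by its name and by its equal quantiles. Base 2 was settled from Rn45s, 8.679 kb long, whose highest value of 13.67 would as a natural log exceed the whole library total. Per the submitters' processing notes, bcl2fastq 2.17.1.14, Partek 6.5 and build Rnor 6.0 were used; no aligner or annotation is given in the sources used here. Of 37185 rows, 2 repeated symbols kept the row of higher mean. A blank was no value. No per-sample column was left unused.

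Differences, in Python 3.11.15 with pandas 2.3.3, are log2 differences without pseudocount. A gene was compared at 1 FPKM or more in either library and counted at a difference of 1 (2-fold). No test was run, since each group had 1 library. The difference step was tested on simulated data. Chains, classes and 14 lists of related genes were chosen with earlier results of these data known. Every chain may be named. List genes are named when past 2-fold or among the highest of a list. Others (Crtap, Lepre1, Lox and genes beside a count or sum) were named after their values were seen. RefSeq tables of GRCr8 gave the windows and the Rn45s length only, since the table's build differs.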

Additional observations from a re-analysis of the deposited data

Results flagged for a closer look

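Of 37 chains with all 4 insulin differences, 8 lay on one side of the control in both astrocyte insulin libraries and on the other side in both neuron insulin libraries (21.6%), as did 19.0% of all 19471 symbols with these values. With the all-symbol median of each difference subtracted, 7 of the 8 (all but Col14a1) kept opposite signs, 18.9% of chains beside 27.3% of symbols, so the share of chains is near or below that of all symbols. The difference between the cultures was not tested, and the 2 times of a culture share a control. Values are log2 differences, astrocyte at 6 h and 12 h and then neuron at 6 h and 12 h.

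Col11a1 had -0.61 and -0.08 in astrocyte cultures, against 0.94 and 1.43 in neuron cultures. Col5a2 had -0.21 and -0.01 in astrocyte cultures, against 0.63 and 0.42 in neuron cultures. Col4a5 had -0.26 and -0.02, against 1.02 and 0.91. Col14a1 had -0.16 and -0.29, against 0.16 and 0.57. Col4a3 had -0.18 and -0.66, against 1.35 and 0.52. The other 3 chains went the opposite way: Col6a3 had 0.59 and 0.19, against -0.49 and -0.18, Col6a6 had 1.18 and 0.74, against -0.06 and -0.62, and Col17a1 had 1.08 and 0.74, against -0.04 and -0.79. All 8 were below 0.1 FPKM in every neuron library, and Col4a3, Col6a6 and Col17a1 were below 0.01 FPKM in all libraries.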

How the results depend on the processing

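No paired analysis was possible because each group had 1 library, and no library could be left out. Of 40 recomputed counts and medians, 14 could not move, because no chain was at the level compared or because the added Col1a2 rows lie below 1 FPKM. Of the other 26, 14 stayed within 1.5 times or 0.1 and 12 did not. The 14 that stayed include the astrocyte insulin counts of 0 at a limit of 5 FPKM and with log2(FPKM + 1), which could not move either. A higher limit keeps only some of the same chains, and adding 1 only shrinks a difference. With no limit on level, 10 of 38 and 8 of 39 chains differed 2-fold from the control in astrocyte cultures at 6 h and 12 h. Of all genes, 13.4% and 13.3% did. In neuron cultures 9 of 41 and 15 of 41 chains did, beside 17.3% and 18.5% of all genes. Between the controls 30 of 38 chains did, beside 46.6% of all genes. The medians without a limit were 0.28 (astrocyte, 6 h) and 2.78 (controls), beside 0.16 and -0.10 for all genes. With a limit of 5 FPKM only 3 chains were left between the controls, all 3 higher in astrocyte cultures, with a median of 11.93. They passed that limit through the astrocyte control alone, and 42.9% of all genes compared differed 2-fold in either direction. Centring on the all-gene median gave 0.08 for the 12 h astrocyte median and 7.23 for the controls, and log2(FPKM + 1) gave 2.36 for the controls. The Col1a2 rows, an alternative chosen after seeing the data, cannot enter a comparison at 1 FPKM. In neuron cultures no median could be taken at 1 or 5 FPKM. Depth is unknown, so levels near 0 have no stated error.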
